A study of Mus musculus with 6 samples.

Results

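Voltage-gated ion channels and nicotinic acetylcholine receptors give neuroendocrine cells their electrical excitability, and this account covers 36 genes for their subunits in a mouse model of small cell lung cancer. The members were named as a fixed list of calcium, sodium and potassium channel subunits and nicotinic receptor subunits. The rule uses no measured value, but the list was drawn up with earlier results of these data known. Of the 36 genes, 33 had at least 1 probe set annotated to them alone, among 18193 genes measured. Cacnb3, Kcnb2 and Kcnh6 had none in the table used here and were not analysed. The 33 genes were covered by 93 probe sets, and each gene is represented by its brightest one over the 6 arrays.

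Voltage-gated channels open when the membrane depolarises. Sodium channels drive the upstroke of an action potential, potassium channels end it, and calcium channels admit the calcium that triggers release of hormone granules and synaptic vesicles. Nicotinic receptors are cation channels made of 5 subunits that open when acetylcholine or nicotine binds. Small cell lung cancer derives largely from pulmonary neuroendocrine cells. Its cells are known to fire action potentials, and in patients the tumour can provoke antibodies against P/Q-type calcium channels that cause Lambert-Eaton myasthenic syndrome.

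The study set tumour-propagating cells (TPCs) against non-TPCs of the same tumours. Each of the mice 1127, 920 and 0107 gave 1 TPC sample and 1 non-TPC sample, so there were 6 arrays, 3 per fraction. All animals carried the Rb/p53/p130 triple knockout on a mixed C57BL/6;129Sv/J background, were not treated, and had received Adeno-Cre 6 to 7 months before tumours were taken. Fractions were sorted on CD24, CD44 and EpCAM. The labels name neither the gates, nor the ages of the mice, nor the promoter driving Cre in the virus. Both fractions came from these mice, so no sample from mice of another genotype was compared. The share of cells in each fraction that carried the deletions is not known from these data. Levels are RMA signals on a log2 scale, differences are TPC minus non-TPC, and their error is the SD over 3 mice or the standard error (SE) of the limma fit. Levels of different genes come from different probes and are not compared with each other.

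The array of the non-TPC sample of mouse 0107 stood apart from the others. In that array 8.67% of all genes lay more than 1 log2 unit from the mean of the other 5 arrays, against 1.97% to 3.28% in the other 5. Neurod1, a neurogenic transcription factor, was at 9.70 there and between 3.88 and 5.11 in the other arrays, and Mycn was at 13.70 there against 10.64 in TPCs of the same mouse and 6.94 to 7.44 in the other mice. Rb1 and Rbl2, which encodes p130, differed by 0.74 (limma adjusted p = 0.758) and -0.09 (adjusted p = 0.962), and they check no label, since it was not known whether their probes lie in the deleted exons. The neuroendocrine label was checked on 10 of 12 listed markers that were measured. Of the 10, 9 had a mean level above the median of all probe sets. Chga, Chgb, Resp18, Scg2 and Insm1 were between 9.67 and 12.69 in all 6 arrays. Syp was between 6.72 and 8.02, and Nkx2-1, below that median, between 5.42 and 5.74. The log2 of the list's summed level, in which the brightest probes weigh most, was 14.17 to 14.45 in TPCs and 13.93 to 14.40 in non-TPCs. Summed levels of the markers of 5 other cell types were lower in TPCs than in non-TPCs of each mouse. They were 11.03 to 11.17 in TPCs and 12.73 to 13.56 in non-TPCs for 7 alveolar type 2 markers, of which 2 were called lower in limma, Sftpa1 and Sftpc. With the replicate block Sftpa1 was called (adjusted p = 0.0286), Sftpc was not (adjusted p = 0.051), and the leukocyte gene Lcp1 was (adjusted p = 0.0333). They were 10.22 to 10.78 in TPCs and 10.79 to 11.63 in non-TPCs for 8 leukocyte markers, and 10.69 to 11.72 in TPCs and 11.85 to 14.48 in non-TPCs for 9 fibroblast markers. For 9 endothelial markers they were 10.62 to 11.11 in TPCs and 11.01 to 11.44 in non-TPCs, and for 12 smooth muscle and pericyte markers 9.24 to 9.33 in TPCs and 9.43 to 11.32 in non-TPCs. Of those 12, however, 6 were higher and 6 lower in TPCs, with a median difference of -0.03 and the lowest differences in Rgs5 (-3.36), Acta2 (-1.45) and Tagln (-0.79). The part of these cells in the channel levels was not tested. In such sorted bulk samples, fewer cells of a type and less RNA per cell cannot be told apart.

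Of the 33 measured genes, 19 had a mean level above the median of all probe sets, 6.04, which is the level counted here as expressed. That share, 57.6%, is set beside 63% of all genes. The genes just above that level were Cacna1d (6.14), Cacna1e (6.24) and Kcnq3 (6.33), and those just below were Cacnb2 (5.93), Scn1a (5.86) and Chrnb4 (5.76). Counted as expressed were 6 of 7 calcium channel pore subunits, 3 of 5 calcium channel auxiliary subunits, 3 of 4 sodium channel pore subunits, 1 of 2 sodium channel beta subunits, 3 of 6 voltage-gated potassium channel pore subunits, 2 of 4 calcium-activated potassium channel subunits and 1 of 5 nicotinic receptor subunits.

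No channel or receptor gene passed the test between TPCs and non-TPCs. In limma with Benjamini-Hochberg adjustment over all 18193 genes, 0 of 33 were called higher and 0 were called lower, where 0% and 0.0605% of all genes were called, and with the mouse as a replicate block 0 of 33 were called against 0.0715% of all genes. The smallest adjusted p of a member was 0.769 in limma and 0.35 with the block. At an unadjusted p under 0.05 there was 1 member (3.03%), Kcnn3, against 6.48% of all genes, and with the block there were 5 (15.2%, against 9.85% of all genes), Cacna2d1, Scn3b, Scn8a, Scn9a and Kcnn3. By the mean difference 20 of 33 were higher in TPCs (60.6%, against 58.1% of all genes), and the median difference was 0.09 over the members and 0.04 over all genes. TPCs were higher in all 3 mice for 9 members (27.3%, against 19.7% of all genes) and lower in all 3 for 5 (15.2%, against 13.8%). The differences given for single genes are therefore values that did not pass the test.

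**Figure D1:**
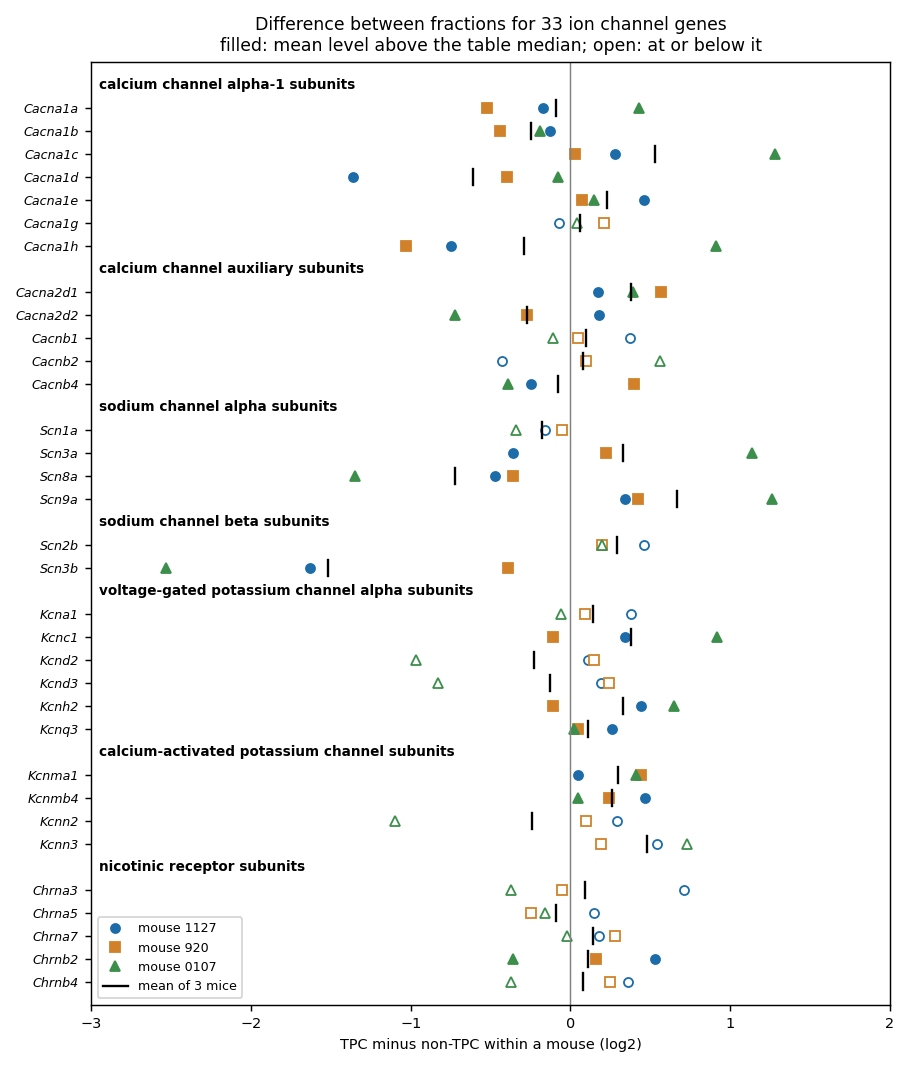
TPC minus non-TPC (log2, x axis) within mouse 1127 (circles), 920 (squares) and 0107 (triangles) for the 33 measured genes, grouped by role, with a bar for the mean of 3 mice. Filled symbols are genes above the table median and open symbols those at or below it. Most points lie within 1 log2 unit of 0, and the farthest is Scn3b in mouse 0107, at -2.53.

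The promoters of 4 members are shown because their genes took opposite positions in the 0107 non-TPC array, which had the highest level of Scn8a and Cacna1d and the lowest of Scn9a and Cacna1c. Where a gene has several starts, 1 window is shown. Each is the 250 bases before a RefSeq transcript start in GRCm38.p6, written 5′ to 3′ on the strand of the gene, and capitals mark a match on either strand to the letters CAGATG of an E-box, to its variant forms CAGCTG and, for factors of the MYC family, CACGTG, or to the left piece of an RE1 site, CAGCACC, or its right piece, which reads GGACAGC. E-boxes are the sites of neurogenic and MYC-family factors, and RE1 is the site of REST, a repressor of neuronal genes.
Scn8a promoter, chr15:100870395-100870644, plus strand: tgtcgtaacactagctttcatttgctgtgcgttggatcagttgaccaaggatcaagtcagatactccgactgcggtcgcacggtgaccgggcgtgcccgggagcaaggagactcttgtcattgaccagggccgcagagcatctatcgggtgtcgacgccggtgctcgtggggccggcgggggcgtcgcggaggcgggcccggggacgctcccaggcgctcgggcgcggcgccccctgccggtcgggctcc
Scn9a promoter, chr2:66634963-66635212, minus strand: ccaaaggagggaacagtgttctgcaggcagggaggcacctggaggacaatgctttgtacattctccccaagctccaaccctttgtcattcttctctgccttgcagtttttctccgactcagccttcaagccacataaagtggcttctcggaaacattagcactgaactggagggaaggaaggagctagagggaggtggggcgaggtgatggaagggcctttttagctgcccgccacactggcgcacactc
Cacna1c promoter, chr6:118757975-118758224, minus strand: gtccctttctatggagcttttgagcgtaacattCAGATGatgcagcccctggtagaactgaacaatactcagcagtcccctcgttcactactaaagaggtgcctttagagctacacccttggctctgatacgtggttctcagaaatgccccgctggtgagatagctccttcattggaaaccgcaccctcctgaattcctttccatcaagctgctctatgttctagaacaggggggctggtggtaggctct
Cacna1d promoter, chr14:30353487-30353736, minus strand: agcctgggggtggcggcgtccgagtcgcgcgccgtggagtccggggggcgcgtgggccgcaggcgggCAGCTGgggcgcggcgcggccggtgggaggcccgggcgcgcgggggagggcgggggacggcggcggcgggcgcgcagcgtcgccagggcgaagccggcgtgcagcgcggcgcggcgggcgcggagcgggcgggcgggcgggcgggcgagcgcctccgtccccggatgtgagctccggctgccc
The Scn8a and Scn9a windows hold none of these letters. The Cacna1c window holds CAGATG, which 14.4% of all 32851 windows of this length hold, and the Cacna1d window holds CAGCTG, which 13% hold. Other starts of these genes differ. The Cacna1c window that begins at chr6:119108496 also holds CAGATG. The Cacna1c window at chr6:119196410 and the Cacna1d window at chr14:30491157 hold none of these letters. Over the 37 windows found for 27 of the 36 members, 4 held CAGATG, 7 held CAGCTG, 1 held CACGTG (6.02% of all windows), 1 held CAGCACC (5.73%) and 2 held GGACAGC (5.28%). The member windows were rich in G and C, with a median of 65.2% against 52.4% over all windows, and 18 of 37 held a GC box, GGGCGG, against 32.7% of all windows. Cacnb3 and Kcnh6, which had no probe set, are among the genes with windows. A match or its absence describes only the letters in these windows.

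Among sodium channels, TPCs of mouse 0107 had higher levels of the pore subunits Scn9a and Scn3a and lower levels of Scn8a and Scn3b. Scn9a encodes Nav1.7, a channel of sensory and sympathetic neurons and of neuroendocrine cells that amplifies small depolarisations. Its level was 9.28, 9.49 and 8.95 in TPCs of mice 1127, 920 and 0107, against 8.93, 9.07 and 7.69 in non-TPCs. TPCs were higher in all 3 mice, by 0.34, 0.42 and 1.26, while the fractions overlapped because TPCs of mouse 0107 were below non-TPCs of mouse 920. The mean difference was 0.67 (SE 0.38, 95% interval -0.23 to 1.58, limma adjusted p = 0.868). With the replicate block the SE was 0.22 and the limma adjusted p was 0.422. The brightest Scn9a probe set carries the x_at suffix, which Affymetrix uses for sets that can bind other transcripts. The other 3 Scn9a probe sets above the table median differed by 0.63, 0.98 and 1.45 on average and by 1.22, 2.02 and 2.92 in mouse 0107, but by 0.29, -0.21 and -0.00 in mouse 1127. Without the 0107 non-TPC array the difference of the brightest set was 0.24 (limma adjusted p = 0.651). It was 0.38 without both arrays of mouse 0107.

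Scn3a encodes Nav1.3, a channel of embryonic neurons that is also known in endocrine cells. It stood at 8.79, 8.86 and 9.12 in TPCs of mice 1127, 920 and 0107, against 9.15, 8.64 and 7.98 in non-TPCs. TPCs were lower in mouse 1127, by -0.36, and higher in mice 920 and 0107, by 0.22 and 1.14, which left a mean of 0.33 (SE 0.30, adjusted p = 0.901 in limma). The mean was 0.61 when non-TPCs of mouse 1127 were left out, 0.03 without the 0107 non-TPC array and -0.07 without both arrays of that mouse.

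Scn8a encodes Nav1.6, the main channel of the axon initial segment in mature neurons. Its level was 6.66, 6.32 and 6.68 in TPCs of mice 1127, 920 and 0107, against 7.13, 6.67 and 8.03 in non-TPCs. TPCs were lower in all 3 mice, by -0.47, -0.36 and -1.35, and the 2 fractions overlapped only through TPCs of mouse 0107 (6.68) and non-TPCs of mouse 920 (6.67). The mean difference was -0.72 (SE 0.34, 95% interval -1.54 to 0.09, adjusted p = 0.812 in limma, and 0.412 with the replicate block, where the SE was 0.23). A second Scn8a probe set above the table median differed by -0.44, 0.15 and -0.70 in the same mice. Among the sets below that median, the one at a mean level of 5.59 differed by -0.85, -0.71 and -1.55. Those at 4.77 and 4.50 differed by 0.00 and 0.13 on average. Without the 0107 non-TPC array the difference of the brightest Scn8a set was -0.35 (limma adjusted p = 0.553). It was -0.41 without both arrays of mouse 0107.

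Scn3b encodes the beta-3 subunit, a single-pass membrane protein that shapes gating and surface delivery of the pore. It had the largest mean difference of the 33 genes. Its level was 5.81, 5.76 and 7.06 in TPCs of mice 1127, 920 and 0107, against 7.44, 6.15 and 9.59 in non-TPCs. TPCs were lower in all 3 mice, by -1.63, -0.39 and -2.53, yet the fractions overlapped, and the means of the mice themselves ran between 5.96 in mouse 920 and 8.32 in mouse 0107. The mean was 6.21 ± 0.74 in TPCs, against 7.73 ± 1.73 in non-TPCs (SD, n = 3 each). The difference of -1.52, 2.86-fold lower in TPCs, had an SE of 0.85 and an adjusted p of 0.868 in limma, and an SE of 0.41 and an adjusted p of 0.35 with the replicate block. Without the 0107 non-TPC array the difference was -0.59 (limma adjusted p = 0.685), and leaving out non-TPCs of mouse 920 made it -2.30. In both fits the TPC array of the same mouse stayed in without its pair. The difference was -1.01 without both arrays of mouse 0107 and -2.08 without both arrays of mouse 920. Neurod1 was also high in the 0107 non-TPC array. Of the endothelial markers, Cldn5 (9.03), Egfl7 (8.50), Kdr (8.21), Tek (7.13), Cdh5 (6.89), Tie1 (4.43), Pecam1 (4.33) and Emcn (4.11) were at their highest there, while Vwf (9.81) was at its lowest. Fibroblast markers were mixed, with Pdgfra at its highest (8.11) and Dcn (11.51), Col1a2 (6.38) and Col3a1 (5.12) lower than in the other non-TPC arrays. Their part in the Scn3b level was not tested. The second Scn3b probe set was below the table median, at a mean of 4.72. It differed by -0.24, -0.03 and 0.35 in mice 1127, 920 and 0107, a mean of 0.03. With the mean of all probe sets of a gene the Scn3b difference was -0.74.

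The other sodium channel members were below the table median. Scn1a, which encodes Nav1.1 of inhibitory neurons, was at 5.39, 5.62 and 6.30 in TPCs, against 5.54, 5.67 and 6.64 in non-TPCs of the same mice. Its 2 arrays of mouse 0107 were the highest in both fractions, and the fractions differed by -0.18 (SE 0.36). Scn2b, the beta-2 subunit, was at 5.23, 5.27 and 5.31 in TPCs, against 4.77, 5.08 and 5.11 in non-TPCs. The fractions of Scn2b did not overlap, at a difference of 0.29 (SE 0.14, limma adjusted p = 0.823). A second Scn2b probe set was nearly as bright, at a mean of 5.09 against 5.13. It differed by 0.54, 0.20 and -0.14 in mice 1127, 920 and 0107, and its fractions overlapped. Scn1a and Scn9a are neighbours on chromosome 2 in the RefSeq gene table with no protein-coding gene between them, and Scn3a lies 4 protein-coding genes from Scn1a.

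**Figure D2:**
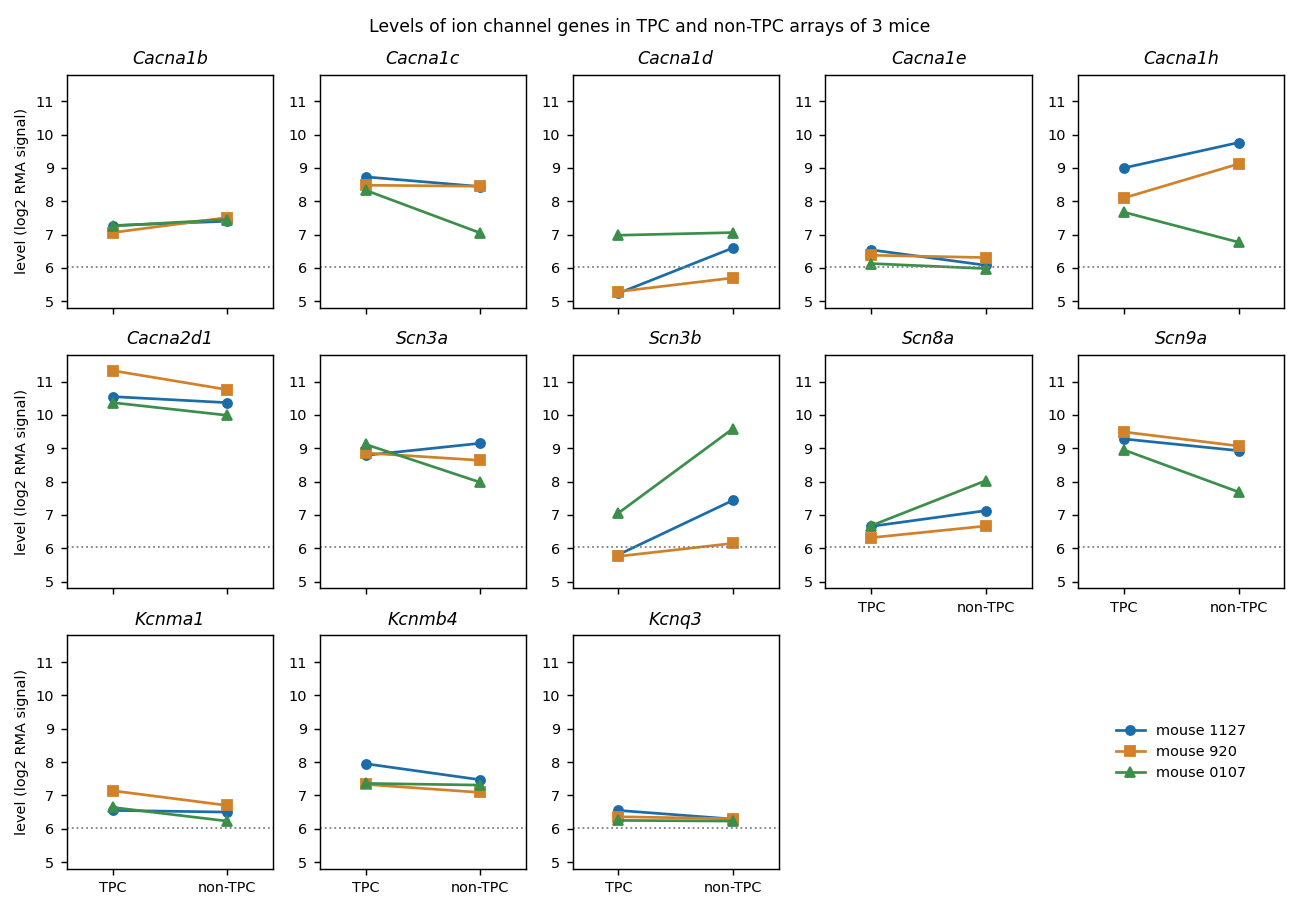
Level (log2 RMA signal, y axis) of the 13 genes named with every array, in TPCs (left) and non-TPCs (right) of the same mouse, joined by a line per mouse. The dotted line is the table median of 6.04. In mouse 0107 (green) Scn3b and Scn8a were highest in non-TPCs, at 9.59 and 8.03, while Cacna1c, Cacna1h, Scn3a and Scn9a were lowest there, at 7.05, 6.77, 7.98 and 7.69.

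Among calcium channel pore subunits, Cacna1c and Cacna1e were higher and Cacna1b and Cacna1d lower in TPCs of all 3 mice, and Cacna1h changed direction between mice. Cacna1c encodes the L-type channel Cav1.2 of heart, smooth muscle and neurons. Its level was 8.73, 8.48 and 8.33 in TPCs of mice 1127, 920 and 0107, against 8.44, 8.45 and 7.05 in non-TPCs. The differences were 0.28, 0.03 and 1.28, largest in mouse 0107, with a mean of 0.53 (SE 0.39, limma adjusted p = 0.887). The mean was 0.06 without the 0107 non-TPC array and 0.15 without both arrays of mouse 0107. A second Cacna1c probe set above the table median differed by 0.16, -0.05 and 0.28, a mean of 0.13, and so was not higher in all 3 mice. Smooth muscle also expresses Cacna1c. In non-TPCs of mouse 1127, where the summed smooth muscle and pericyte level was highest (11.32), Rgs5 was at 10.31, Acta2 at 9.32 and Tagln at 7.63, while Cnn1 was at 5.05, Myh11 at 4.82 and Cacna1c at 8.44. The part of these cells in the Cacna1c level was not tested.

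Cacna1d encodes Cav1.3, an L-type channel that opens at low voltage and supports pacemaking in endocrine cells. It stood at 5.24, 5.29 and 6.98 in TPCs of mice 1127, 920 and 0107, against 6.60, 5.70 and 7.06 in non-TPCs. Both arrays of mouse 0107 were the highest, and the differences of -1.36, -0.40 and -0.08 averaged -0.61 (SE 0.55, limma adjusted p = 0.901). With 1 array left out it ran between -1.18 (TPCs of mouse 0107) and -0.31 (non-TPCs of mouse 0107), and was -0.32 and -0.34 when TPCs of mice 1127 and 920 were left out and -0.99 for non-TPCs of mouse 920. Without both arrays of mouse 0107 it was -0.88. Its brightest probe set carries the s_at suffix of sets shared by several transcripts, and 3 of its 6 arrays were above the table median. The second Cacna1d probe set, below the table median at a mean of 4.75, differed by 0.22, 0.11 and -0.30. Its mean difference was 0.01, so it was not lower in all 3 mice.

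Cacna1h encodes the T-type channel Cav3.2, which opens near the resting potential. Its level was 9.00, 8.10 and 7.67 in TPCs of mice 1127, 920 and 0107, against 9.76, 9.12 and 6.77 in non-TPCs. Both arrays of mouse 0107 were the lowest. TPCs were lower in mice 1127 and 920, by -0.75 and -1.03, and higher in mouse 0107, by 0.91, which left a mean of -0.29 (SE 0.78, limma adjusted p = 0.963). A second Cacna1h probe set above the table median differed by -0.10, 0.27 and 1.73, so the probe sets differed in direction in mouse 920. Both were lowest in the 0107 non-TPC array. Leaving it out, the brightest set differed by -1.18 (limma adjusted p = 0.403). That fit kept TPCs of mouse 0107 without their pair. Without both arrays of mouse 0107 the brightest set differed by -0.89.

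Cacna1b encodes the N-type channel Cav2.2 of presynaptic terminals. It was at 7.27, 7.06 and 7.26 in TPCs of mice 1127, 920 and 0107, against 7.40, 7.51 and 7.45 in non-TPCs, without overlap. Of all genes 12.6% had fractions that did not overlap, and of the members 3 of 33 (9.09%), Cacna1b, Scn2b and Kcnn3. The Cacna1b difference was -0.25 (SE 0.13, limma adjusted p = 0.829), and the 3 other Cacna1b probe sets above the table median differed by 0.05, -0.07 and 0.27. Cacna1e, for the R-type channel Cav2.3, was at 6.54, 6.38 and 6.13 in TPCs of the same mice, against 6.08, 6.31 and 5.98 in non-TPCs, a difference of 0.23 (SE 0.17). It was above the table median on 5 of 6 arrays, and the difference was 0.13 when TPCs of mouse 1127 were left out.

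Cacna1a encodes the P/Q-type channel Cav2.1, the target of the antibodies in Lambert-Eaton syndrome. It averaged 7.77 ± 0.15 in TPCs, against 7.86 ± 0.58 in non-TPCs (SD, n = 3 each), with differences of -0.17, -0.52 and 0.43 in mice 1127, 920 and 0107. The 95% interval of its mean difference was -0.79 to 0.61, so a difference of 1 log2 unit in either direction lay outside it. Cacna1g, for the T-type channel Cav3.1, was below the table median on all 6 arrays, between 5.31 and 5.54.

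Auxiliary calcium channel subunits carry the pore to the surface and set its gating. Cacna2d1, the alpha-2-delta-1 subunit that binds gabapentin, was at 10.55, 11.33 and 10.37 in TPCs of mice 1127, 920 and 0107, against 10.37, 10.76 and 9.99 in non-TPCs. TPCs were higher in all 3 mice, by 0.17, 0.57 and 0.39, with overlap of the fractions. The mean difference was 0.38 with an SE of 0.31 in limma (adjusted p = 0.899) and of 0.14 with the replicate block (adjusted p = 0.497). The difference was 0.09 when TPCs of mouse 920 were left out and 0.18 without the 0107 non-TPC array. It was 0.28 without both arrays of mouse 920 and 0.37 without both arrays of mouse 0107. Its other 3 probe sets above the table median differed by 0.49, 0.45 and 0.82, all higher in TPCs on average. The sets at 0.49 and 0.82 were higher in all 3 mice. The set at 0.45 differed by -0.30, 0.22 and 1.43 in mice 1127, 920 and 0107, so it was lower in mouse 1127. Cacna2d2 averaged 7.62 ± 0.17 in TPCs, against 7.89 ± 0.41 in non-TPCs (SD, n = 3 each), and Cacnb4, a beta subunit of neurons, 6.62 ± 0.07 and 6.70 ± 0.35. The beta subunits Cacnb1 and Cacnb2 were below the table median and differed by 0.10 and 0.08.

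Among potassium channels with a level above the table median, the brightest sets of Kcnma1, Kcnmb4 and Kcnq3 were higher in TPCs of all 3 mice by small amounts. Kcnma1 encodes the pore of the BK channel, which opens with calcium and voltage together. It was at 6.55, 7.14 and 6.64 in TPCs of mice 1127, 920 and 0107, against 6.50, 6.70 and 6.23 in non-TPCs, a mean difference of 0.30 (SE 0.21, limma adjusted p = 0.886). It was 0.12 when TPCs of mouse 920 were left out and 0.18 without the 0107 non-TPC array. Leaving out both arrays of mouse 920 made it 0.23, and both arrays of mouse 0107 0.24. A second Kcnma1 probe set above the table median differed by -1.29, -0.02 and 0.63, so the direction in mouse 1127 depended on the probe set.

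Kcnmb4, the neuronal beta subunit of BK channels, was at 7.95, 7.33 and 7.36 in TPCs of mice 1127, 920 and 0107, against 7.47, 7.09 and 7.31 in non-TPCs, a difference of 0.26 (SE 0.21, limma adjusted p = 0.899). It was 0.05 when TPCs of mouse 1127 were left out and 0.15 for non-TPCs of mouse 920. Kcnq3, a subunit of the M-current channel that damps repetitive firing, was at 6.55, 6.36 and 6.25 in TPCs, against 6.29, 6.30 and 6.23 in non-TPCs, a difference of 0.11 (SE 0.13) that was 0.03 when TPCs of mouse 1127 were left out and 0.18 for TPCs of mouse 0107. The fractions of both genes overlapped.

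Kcnh2 encodes hERG, the channel of the rapid delayed rectifier in heart. It averaged 9.08 ± 0.27 in TPCs, against 8.75 ± 0.39 in non-TPCs (SD, n = 3 each), with differences of 0.44, -0.11 and 0.65 in mice 1127, 920 and 0107. Kcnc1 encodes Kv3.1, a channel of fast-spiking neurons, and averaged 7.65 ± 0.35 in TPCs and 7.27 ± 0.74 in non-TPCs, with differences of 0.34, -0.11 and 0.92. Its non-TPC array of mouse 0107 stood at 6.42, against 7.33 to 8.02 in the other 5 arrays.

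Below the table median, Kcnn3, a small-conductance calcium-activated channel, was at 5.23, 5.01 and 5.69 in TPCs of mice 1127, 920 and 0107, against 4.70, 4.83 and 4.96 in non-TPCs. The fractions did not overlap, and the difference of 0.48 (SE 0.20) had an unadjusted p of 0.0489 and an adjusted p of 0.769 in limma. Its relative Kcnn2 was at 5.03, 4.72 and 5.05 in TPCs, against 4.74, 4.61 and 6.14 in non-TPCs, and the A-type channel gene Kcnd2 at 5.84, 4.89 and 5.83 in TPCs, against 5.72, 4.74 and 6.80 in non-TPCs. Both were highest in the 0107 non-TPC array, as was Kcnd3, at 5.75 against 4.43 to 4.92 in the other 5 arrays. Kcna1, for the axonal channel Kv1.1, stayed between 5.05 and 5.48.

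Of the 5 nicotinic receptor subunits 4 were below the table median, and none had the same direction in all 3 mice. Chrnb2, which forms the main brain receptor together with the alpha-4 subunit, was the subunit above it. It averaged 6.82 ± 0.35 in TPCs, against 6.71 ± 0.45 in non-TPCs (SD, n = 3 each), with differences of 0.53, 0.16 and -0.36 in mice 1127, 920 and 0107. Chrna5, Chrna3 and Chrnb4 lie side by side on chromosome 9 in the RefSeq gene table, and the human genes of this cluster are linked to smoking and lung cancer risk. Chrna3, the alpha subunit of ganglionic receptors, was at 6.20, 5.72 and 5.48 in TPCs, against 5.49, 5.78 and 5.85 in non-TPCs. Chrnb4, its partner, was at 5.79, 5.78 and 5.82 in TPCs, against 5.43, 5.53 and 6.19 in non-TPCs. Chrna3 and Chrnb4 each passed the table median on 1 of 6 arrays, Chrna3 in TPCs of mouse 1127 and Chrnb4 in non-TPCs of mouse 0107. The accessory subunit Chrna5 was between 3.48 and 4.13, and Chrna7, which forms receptors of a single subunit type, between 5.48 and 5.82. Mean differences of the 5 subunits ran from -0.09 to 0.14.

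Across the 33 genes the 0107 non-TPC array held most of the extreme values. It was more than 1 log2 unit from the mean of the other 5 arrays for 10 members (30.3%, against 8.67% of all genes). On the other arrays fewer members lay that far out. In TPCs there were 2 in mouse 1127 (2.75% of all genes), 2 in mouse 920 (1.97%) and 0 in mouse 0107 (2.36%), and in non-TPCs 1 in mouse 1127 (3.28%) and 1 in mouse 920 (2.66%). The 0107 non-TPC array was the lowest of the 6 for 12 members (36.4%, against 20.9% of all genes) and the highest for 13 (39.4%, against 28.2%). Differences between the fractions of at least 1 were found for 2 members in mouse 1127 (4.44% of all genes), 1 in mouse 920 (3.11%) and 6 in mouse 0107 (8.26%). In the 0107 non-TPC array, the members above the mean of the other arrays were Scn3b (by 3.14), Kcnd2 (1.39), Scn8a (1.34), Kcnn2 (1.32), Cacna1d (1.10) and Kcnd3 (1.04), 18.2% of the members against 3.84% of all genes. Below it were Cacna1h (by -1.96), Scn9a (-1.45), Cacna1c (-1.44) and Kcnc1 (-1.25), 12.1% of the members against 4.83% of all genes. Of these 10, Kcnd2, Kcnd3 and Kcnn2 are below the table median. Of the other 7, Scn3b and Cacna1d have no further probe set above that level, and their second sets deviated by only 0.06 and 0.34. The rest have 9 further probe sets above it, of which 8 deviated in the same direction and 5 by more than 1. The exception was a Kcnc1 probe set that deviated by 0.27. Only 1 such array exists, so this is a description without a test. Epcam was also lowest in that array, at 9.98. Neuroendocrine markers were mixed there. Chga (9.67), Resp18 (11.32), Scg2 (11.21) and Syp (6.72) were at their lowest and Ncam1 (10.65) and Scg3 (10.93) at their highest. Insm1, Chgb, Uchl1 and Nkx2-1 were in between. The part of Epcam and these markers in the member levels was not tested.

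**Figure D3:**
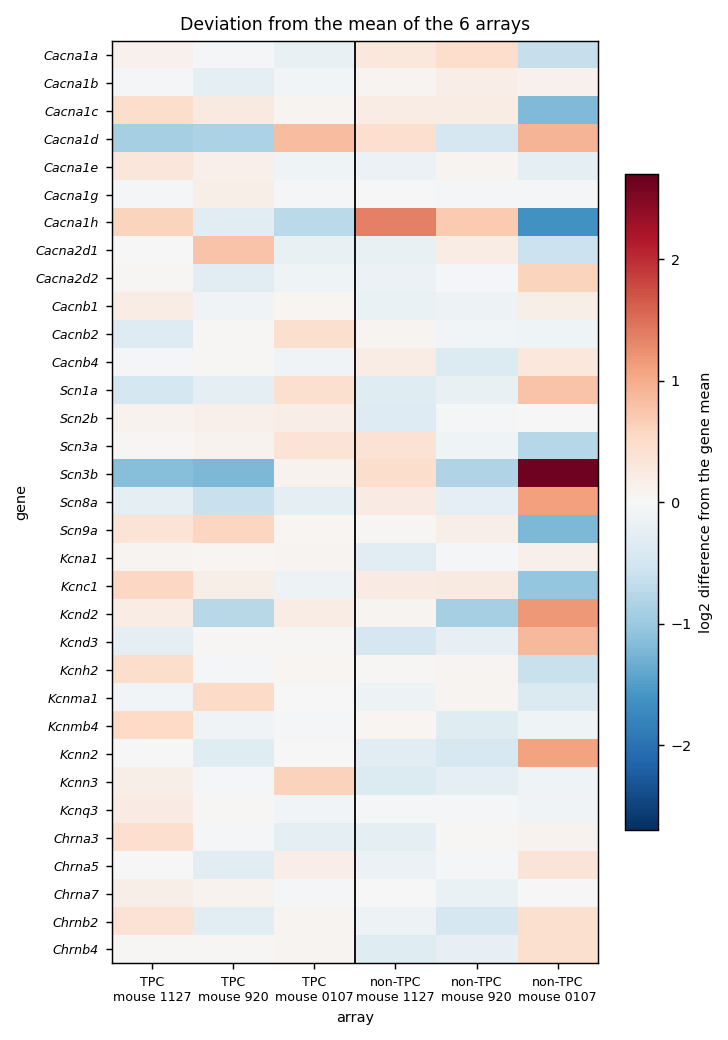
Colour gives the difference of each array from the gene's mean over the 6 arrays (log2, red higher, blue lower) for the 33 genes, with TPC arrays on the left and non-TPC arrays on the right of the line. The strongest colours are in the 0107 non-TPC array, where the median absolute deviation of the members was 0.43, against 0.1 to 0.2 in the other arrays.

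**Figure D4:**
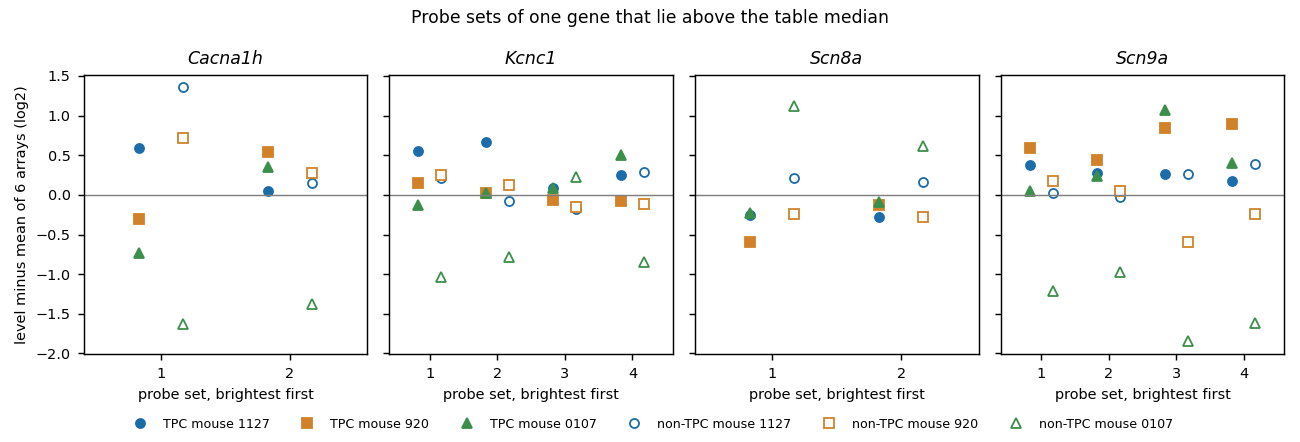
Level minus the mean of the 6 arrays (log2, y axis) for each probe set above the table median of Cacna1h, Kcnc1, Scn8a and Scn9a, brightest first. Filled symbols are TPCs, open symbols non-TPCs, and shapes are mice. Open triangles, the 0107 non-TPC array, are lowest in all Scn9a and Cacna1h sets and in 3 of 4 Kcnc1 sets, and highest in both Scn8a sets.

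Related channel genes outside the list were counted in the same way. Those named below were chosen otherwise than the members. They come from the up to 4 genes of each list above the table median with the smallest unadjusted p in limma. Their differences are therefore selected values. Of 12 measured other calcium channel subunits, 5 other sodium channel subunits, 40 other potassium channel subunits, 10 other nicotinic receptor subunits and 28 pacemaker, leak and inward rectifier subunits, 0 passed the limma test in either direction, and their median differences were 0.09, 0.13, 0.11, 0.13 and 0.12. By the mean difference 9 of 12, 4 of 5, 29 of 40, 8 of 10 and 23 of 28 were higher in TPCs, where 58.1% of all genes were. Kcne4, a potassium channel accessory subunit, was lower by -0.33, -0.32 and -0.47 in mice 1127, 920 and 0107 (mean -0.37, limma adjusted p = 0.81), and the calcium channel subunit Cacna2d4 differed by -0.95, -0.99 and 0.68. Kcnip2, which modulates A-type channels, was higher by 0.40, 0.38 and 0.45. Kcnk2, which encodes the mechanosensitive leak channel TREK-1, was higher by 0.74, 0.71 and 1.27 in mice 1127, 920 and 0107 (mean 0.91, SE 0.35, limma adjusted p = 0.734). The leak channel gene Kcnk1 was higher by 0.10, 0.44 and 1.43 and Kcnf1, a modifier subunit, by 0.50, 0.67 and 1.04. The auxiliary subunit Cacna2d3 differed by -0.10, 0.50 and 1.91, and the inward rectifier Kcnj1 by -0.17, 0.78 and 2.56, so in both the size lay in mouse 0107. In the same family as Scn8a and Scn9a, Scn2a differed by 0.08, 0.26 and 0.18, and Scn7a, an atypical channel of glia and lung, by -1.70, 0.36 and 0.43. Of 7 measured autonomic neuron markers 5 were above the table median, with summed levels of 11.93 to 12.14 in TPCs and 12.06 to 12.25 in non-TPCs. Snap25 and Elavl4 averaged 10.97 and 10.47, while Th (5.75) and Hand2 (5.15) were below the table median. Which cells these transcripts came from was not tested. The 5 peripheral glia markers had summed levels of 10.09 to 10.17 in TPCs and 9.52 to 10.11 in non-TPCs.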

How the data were processed

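RNA of 6 sorted samples was measured on 1-colour mouse expression arrays. The authors deposited log2 values per probe set, which came from RMA, per the submitters' processing notes. Array medians were 6.00 to 6.04, and the number of arrays limits the precision. Of 45101 probe sets, 34945 had 1 gene symbol, 932 had several and 9160 had none; 64 were controls. The brightest probe set over the 6 arrays stood for each of 18193 genes. Symbols were updated for 18032 genes through RefSeq's gene table, and 161 kept the annotation's symbol.

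TPCs were compared with non-TPCs in limma 3.58.1 (R 4.3.3), two-sided, with Benjamini-Hochberg adjustment over all genes and a threshold of 0.05. Nothing states that the mice are independent of each other beyond their numbers. Fractions of 1 mouse are paired by that number: deviations from the fraction means correlated at 0.30, 0.46 and 0.36 within mice 1127, 920 and 0107. The mouse was a block in an alternative fit. The fit was tested on simulated data.

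Members and gene lists were chosen with earlier results of these data known. Members named with every array are those above the table median with 1 sign in all 3 mice or a difference of 1 in a mouse. Values of the remaining members were added so that each is accounted for. Of each other channel list, up to 4 genes above the table median with the smallest unadjusted p were eligible. Promoter windows are RefSeq's, build GRCm38.p6. Alternatives were the block, single arrays or mice left out, other probe set rules, a filter on low values, further normalisation and another variance model. Where 1 array was left out, the fit had no block and kept the other array of that mouse. Such a difference also holds differences between mice.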

Additional observations from a re-analysis of the deposited data

How the results depend on the processing

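No member passed the threshold in limma under any alternative. The smallest adjusted p of a member was 0.769, 0.35 in the replicate block fit and 0.403 without the 0107 non-TPC array. The count of genes past the threshold, 11, was 13 with the replicate block, 39 with the mouse as a random replicate block and 4 with the mean of all probe sets of a gene. It ran between 0 and 4 when 1 mouse was left out and between 1 and 84 when 1 array was left out, with 84 when the 0107 non-TPC array was dropped and 30 when the 920 non-TPC array was. The 20 members higher in TPCs were 11 of 19 among genes above the table median and 17 to 25 with a mouse or array left out. Expressed members, 19, were 13 against the median over genes and 16 when all 6 arrays had to pass. The difference of Cacna1h, -0.29, turned to 0.17 with the mean of all probe sets, and ran between -1.18 and 0.31 with a mouse or array left out, with 0.31 lacking the 1127 non-TPC array, 0.08 without mouse 920 and 0.00 without the TPC array of mouse 0107. Kcnma1 turned to -0.03 with the mean of all probe sets, and Scn3a to -0.07 without mouse 0107, within -0.07 to 0.68 over all such omissions. The cause was not tested.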
